A study of Danio rerio with 4 samples.

Results

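The miRNAs described here are the late-numbered miRNAs of zebrafish together with miR-462. miRNAs are numbered in the order in which they were described, and most zebrafish miRNAs with high numbers were first described in fish. All rows named dre-miR-N with N of 700 or more, and the row dre-miR-462, were taken from the 2 deposited tables, which gave 59 of 372 miRNAs. The choice rests on names and on no measured value. The lowest number taken from 700 up was that of miR-722 and the highest number left out was that of miR-499. The 59 rows belong to 44 precursors. For 15 of these both arms are listed, the 5p and the 3p arm of the hairpin, and 29 rows carry no arm in their name.

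The libraries came from embryos of the line Tg(sox10:eGFP,mRFP), in which the sox10 promoter drives 2 fluorescent proteins in neural crest cells (NCC). This promoter is also known to be active in the ear vesicle and in glia, so GFP-positive cells can hold more than crest. Cells were sorted by this label at 16 and at 28 hpf (hours post-fertilization), the GFP-positive ones as NCC and all remaining, GFP-negative ones as non-NCC. Both populations of both stages carry the transgenes, and each of the 4 groups is 1 library of an untreated line, so the spread between sorts was not measured. Both tables hold miRNAs only, and the crest markers sox10 and foxd3 cannot be read from them.

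A mature miRNA guides Argonaute to messenger RNAs that pair with its seed, bases near its 5′ end, and lowers their translation and stability. It is cut from a hairpin, one arm of which usually gives most of the stable product. Young miRNA families are commonly expressed at lower levels and in fewer cell types than the families shared by all vertebrates. miR-462 and miR-731 come from one cluster, which in fish is known to respond to interferon and hypoxia and is regarded as the counterpart of mammalian miR-191 and miR-425. miR-722 is known in zebrafish as a regulator of rac2 and of neutrophil motility.

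The deposited values are read counts scaled by a size factor for each library, here called normalized counts. Every value was a whole multiple of the value of 1 read, so reads were recovered. Library depth is given here as the reads summed over the 372 miRNAs. The NCC and non-NCC libraries of 16 hpf held 2340716 and 140132389 such reads, and those of 28 hpf held 6502 and 1099312. In the same order, a single read stood for 7.72, 0.130, 11.4 and 0.0877 normalized counts. Since the stages were normalized apart, normalized counts were set against each other only within a stage. Ratios carry 95% Clopper-Pearson intervals. The reads of each miRNA were tested by a two-sided exact binomial test, and its p-values were adjusted by Benjamini-Hochberg over all miRNAs found at the stage. Intervals and tests compare 2 libraries and not the populations. They cover the counting error of reads alone, since each group is 1 library. Reads and not molecules were counted, so intervals may be too narrow and p-values too low even for the sampling of molecules.

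The late-numbered miRNAs were scarce in every library. Of the 59, 38 had at least 1 read in non-NCC at 16 hpf (64.4%), where 301 of the 313 other miRNAs (96.2%) had one. In NCC at 16 hpf, 18 of them were detected (30.5%, against 66.5% of the other miRNAs). At 28 hpf, 15 were detected in non-NCC (25.4%, against 70.9% of the other miRNAs) and 3 in NCC (5.08%, against 15.3%). All of them were among those seen at 16 hpf. A further 21 were at 0 in all 4 libraries, which was the case for 10 of the 313 other miRNAs. The median number of reads of a detected late-numbered miRNA was 23.5 in non-NCC at 16 hpf, against 186 for the others.

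The numbers detected were set against the depth of the libraries. If the non-NCC library of 16 hpf had been sampled at the depth of the NCC library, 17.5 late-numbered miRNAs would have had a read on average, and 18 had one. For the same step at 28 hpf, 1.91 would have been expected and 3 were found. For the 313 other miRNAs, these steps gave 224 expected and 208 found at 16 hpf, and 64.8 expected and 48 found at 28 hpf. The fall from 38 to 15 in non-NCC between the stages depended on how depth was counted. Sampling the 16-hpf reads at the depth of 28 hpf gave 13.2 when all reads were counted, and 21.4 when the miR-430 family, which clears maternal messages and took 91.7% of these reads at 16 hpf and 66.7% at 28 hpf, was left out of the depth. Of the 313 other miRNAs, 301 had a read in non-NCC at 16 hpf and 222 at 28 hpf. The same samplings gave 194 and 248 for them. These expectations were computed after the values were seen.

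Together the 59 rows held 408 NCC and 11384 non-NCC reads at 16 hpf, which is 0.0174% (95% Clopper-Pearson interval 0.0158% to 0.0192%) and 0.00812% (0.00798% to 0.00827%) of the miRNA reads. At 28 hpf they held 7 reads in NCC and 507 in non-NCC, 0.108% (0.0433% to 0.222%) and 0.0461% (0.0422% to 0.0503%). Without the miR-430 family in the total, the shares were 0.217% and 0.0984% at 16 hpf and 0.396% and 0.138% at 28 hpf. One miRNA, miR-735-5p, made up 66.7%, 55.7%, 57.1% and 60.7% of the reads of the group in these libraries in turn. Added up at 16 hpf, the normalized counts of the group were 3150 for NCC against 1475 for non-NCC, a ratio of 2.14. Without miR-735-5p the ratio was 1.61, and without miR-735-5p and miR-462 it was 1.33.

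**Figure D1:**
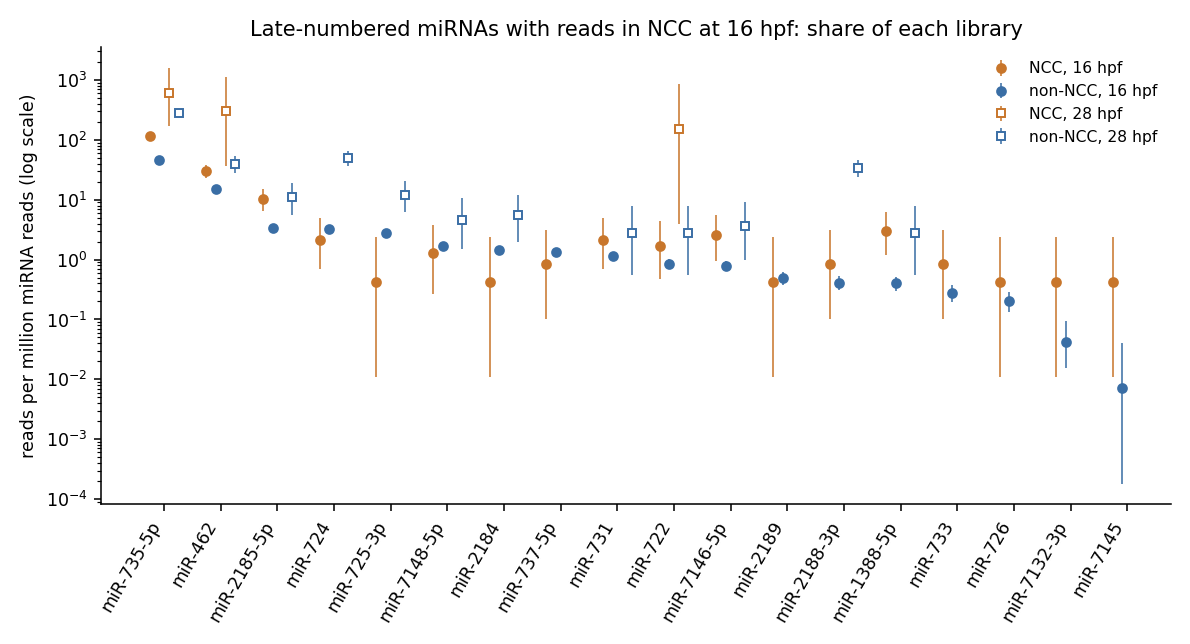
Share of each library, in RPM (reads in each 1000000 miRNA reads) on a log axis, for the 18 late-numbered miRNAs with reads in NCC at 16 hpf. Circles are 16 hpf, squares 28 hpf, orange NCC and blue non-NCC, bars are 95% Clopper-Pearson intervals, and miRNAs without a read in a library have no symbol there. miR-735-5p and miR-462 lead in both libraries of 16 hpf, and only 3 of the 18 have an NCC value at 28 hpf.

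The GRCz12tu gene table, of a later build than the GRCz11 named in the submitters' processing notes, lists 43 of the 44 precursors, and was used for names and neighbours. Of these, 25 lie within the span of a protein-coding gene and 7 within other transcripts only. The 7 include mir738, which lies within the spans of a long noncoding RNA gene and a ribosomal RNA gene. Among the leading miRNAs, mir724 lies in cpne5b, mir2188 in ank1a, the gene of an ankyrin of the red cell membrane skeleton, mir7146 in ccnk, a cyclin gene, and mir722 in gcgrb, a glucagon receptor gene. mir462 and mir731 are direct neighbours, next to dalrd3, the gene that hosts their mammalian counterparts. Of the 3 genes of miR-2185, 2 lie in pimr60 and pimr62. The precursor of miR-735 stands in this table under the symbol rny2, the name of a Y RNA, with dre-mir-735 as its synonym, and mir733 has the synonym vtrna4, the name of a vault RNA. Of the 352 miRNA genes of the table, these 2 bear a name of a Y RNA, vault RNA, small nucleolar, small nuclear or transfer RNA. Y RNAs bind the Ro60 protein, vault RNAs belong to the vault particle, and pieces of both are common in small RNA libraries.

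miR-735-5p was the most abundant of the group in all 4 libraries and was higher in NCC than in non-NCC at 16 hpf. It had 272 NCC and 6341 non-NCC reads at 16 hpf, which is 2100 and 821 normalized counts. At 28 hpf it had 4 reads in NCC and 308 in non-NCC, which is 45.6 and 27.0 normalized counts. The NCC value was thus the higher one at both stages. In such libraries of pooled cells, more cells with a miRNA and more of it per cell cannot be told apart. The ratio was 2.56-fold at 16 hpf (log2 ratio 1.35, 95% interval 1.17 to 1.53; exact binomial test, adjusted p = 4.73e-39). At 28 hpf, where 2.37 NCC reads were expected at equal levels, the log2 ratio was 0.76 with an interval from -1.13 to 2.13, and no difference between the libraries was detectable (exact binomial test, adjusted p = 1). With the libraries scaled to their totals, to totals without the miR-430 family or by edgeR's TMM factors, that log2 ratio was 1.13, 1.43 and 1.17, and the test was not passed. Among all miRNAs, miR-735-5p ranked 34 by reads in the NCC library and 48 in the non-NCC library of 16 hpf, and 24 and 37 in those of 28 hpf.

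All reads of the miR-735 hairpin were assigned to the 5p arm. The 3p arm was at 0 in each library, beside 6341 reads of the 5p arm in non-NCC at 16 hpf, which allows the 3p arm up to 0.0473% of the 5p reads. With the precursor listed as rny2, reads from a Y RNA and from a miRNA hairpin at this gene cannot be told apart in these tables.

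miR-462 was the second of the group in both libraries of 16 hpf and had the same direction as miR-735-5p. It had 70 NCC and 2076 non-NCC reads at 16 hpf, or 540 and 269 normalized counts, and 2 and 43 reads at 28 hpf, or 22.8 and 3.77 normalized counts. NCC was higher at both stages. At 16 hpf the ratio was 2.01-fold (log2 ratio 1.01, interval 0.64 to 1.35; exact binomial test, adjusted p = 7.92e-07), just above the 2-fold limit. With edgeR's TMM factors its log2 ratio was 0.78, below that limit, with the test still passed. At 28 hpf, the log2 ratio of 2.60 rested on 2 NCC reads, and its interval from -0.49 to 4.54 included an equal level (exact binomial test, adjusted p = 0.396).

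The cluster partner miR-731 had fewer reads than miR-462 in every library. At 16 hpf it had 5 NCC reads against 162 non-NCC reads, and at 28 hpf 0 against 3. miR-462 gave 93.3% of the reads of the pair in NCC at 16 hpf (interval 85.1% to 97.8%), 92.8% in non-NCC at 16 hpf (91.6% to 93.8%) and 93.5% in non-NCC at 28 hpf (82.1% to 98.6%). These shares lie within each other's intervals. With 5 and 3 miR-731 reads behind them, the first and the last interval are wide, and a fixed proportion was not shown. The log2 ratio of miR-731 at 16 hpf was 0.88 (interval -0.76 to 2.13), which its 5 NCC reads could not set apart from an equal level (exact binomial test, adjusted p = 0.449). With the reads of both miRNAs added, 75 NCC reads stood against 2238 non-NCC reads at 16 hpf, and the interval of the log2 ratio ran from 0.65 to 1.33.

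Of the 18 late-numbered miRNAs found in both libraries of 16 hpf, 10 were over 2-fold in NCC, where 26.7% of all 225 such miRNAs were, and 2 were over 2-fold in non-NCC, where 25.3% were. The median log2 ratio was 1.04, against 0 over the 225. These 18 passed by having an NCC read, which alone is worth 7.72 normalized counts, so that a rare miRNA with an NCC read was likely to stand above 2-fold, and the count and the median are given as descriptions only. Of the 10, 5 had 1 or 2 NCC reads. Where 10 or more reads in both libraries were required, miR-735-5p, miR-462 and miR-2185-5p remained, all 3 over 2-fold in NCC, where 29.1% of 103 miRNAs were. This filter too was set by the NCC library, since 27 late-numbered miRNAs had 10 or more reads in non-NCC. At equal levels, 8.04 NCC reads would have been expected for miR-2185-5p, too few to pass. The count of 3 is thus also a description only. With edgeR's TMM factors, which shifted all log2 ratios of this stage by -0.23, 7 of the 18 were over 2-fold in NCC. The share of all 225 miRNAs with these factors is not given here, so this count too is a description only.

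In the exact binomial test at 16 hpf, 5 of the 38 late-numbered miRNAs with a read had an adjusted p under 0.05 and 7 an unadjusted p under 0.05. Over all 340 miRNAs tested, 32.6% passed after adjustment and 35.9% before it. All 5 were higher in NCC, as were 14.7% of all miRNAs, and none was called higher in non-NCC, where 17.9% of all miRNAs were. Besides miR-735-5p and miR-462, the 5 were miR-1388-5p, miR-2185-5p and miR-7146-5p. With an unadjusted p, or with edgeR's TMM factors and adjustment, miR-725-3p was higher in non-NCC. Few calls in that direction were possible. At equal levels, at most 3.96 NCC reads were expected for each of the 38, except miR-735-5p, miR-462, miR-2185-5p, miR-724 and miR-725-3p. The lack of adjusted calls in that direction with the deposited scaling is thus given as a description only. At 28 hpf, none of the 15 with a read passed after adjustment, with the deposited scaling or edgeR's TMM factors, where 7.95% of 239 miRNAs passed, 2.93% as higher in NCC and 5.02% as higher in non-NCC. An unadjusted p under 0.05 was found for miR-462 and miR-722, 2 of 15, against 11.7% of all miRNAs.

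miR-1388-5p had the highest ratio among the 5. It had 7 NCC and 56 non-NCC reads at 16 hpf, or 54.0 and 7.25 normalized counts. Its level in NCC was 7.45-fold that in non-NCC (log2 ratio 2.90, interval 1.52 to 4.03; exact binomial test, adjusted p = 3.21e-04). At 28 hpf its 3 reads were in non-NCC, and 0.0231 NCC reads were expected at equal levels. The opposite arm, miR-1388-3p, had 9 non-NCC reads at 16 hpf and 1 at 28 hpf, and none in NCC.

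miR-2185-5p had 24 NCC and 479 non-NCC reads at 16 hpf, or 185 and 62.0 normalized counts. Its level in NCC was 2.99-fold that in non-NCC (log2 ratio 1.58, interval 0.92 to 2.17; exact binomial test, adjusted p = 2.24e-05). It is the one precursor of the group with several genes, 3 in the gene table. The 479 reads are no multiple of 3, and the counts were not divided. The gene table is of a later build than the one the submitters name, so how reads were counted over its genes cannot be told. At 28 hpf, 0 and 12 reads were left. Its 3p arm had 22 reads, all in non-NCC at 16 hpf.

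miR-7146-5p had 6 NCC and 109 non-NCC reads at 16 hpf, or 46.3 and 14.1 normalized counts. The ratio was 3.28-fold (log2 ratio 1.71, interval 0.24 to 2.88; exact binomial test, adjusted p = 0.0379). This call was lost with edgeR's TMM factors (log2 ratio 1.49, exact binomial test, adjusted p = 0.0711). At 28 hpf it had 4 reads in non-NCC and none in NCC.

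**Figure D2:**
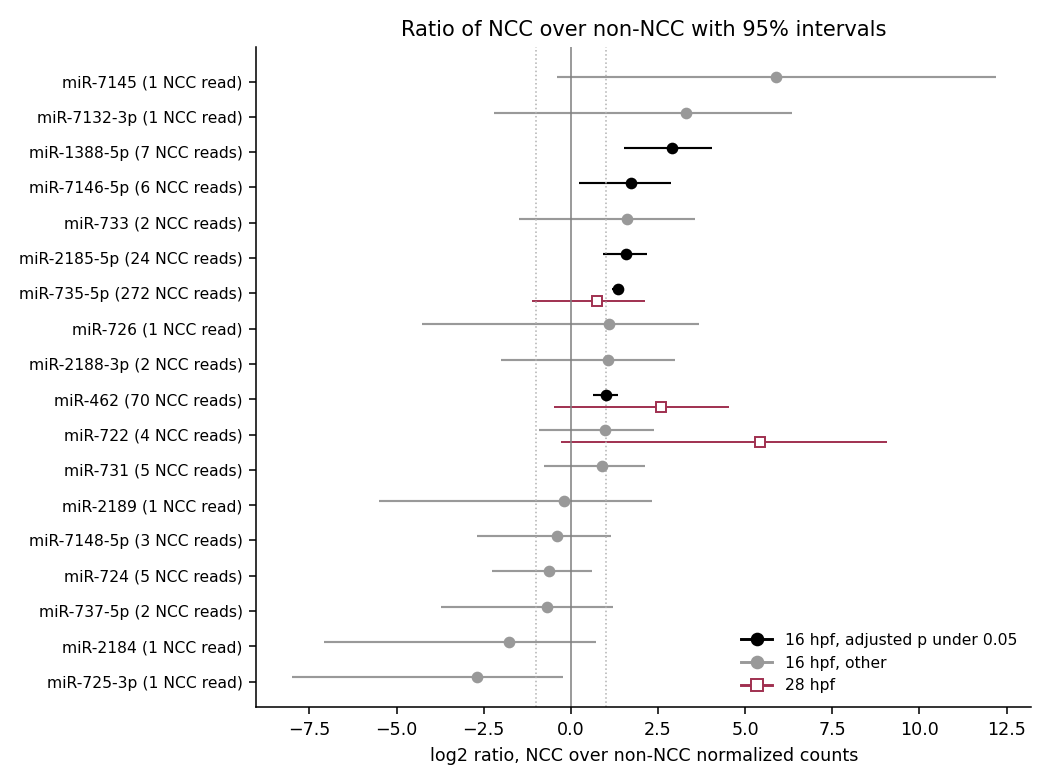
Log2 ratio of NCC over non-NCC normalized counts for the 18 late-numbered miRNAs found in both libraries of 16 hpf, with 95% Clopper-Pearson intervals. Circles are 16 hpf, black where the exact binomial test gave an adjusted p under 0.05, open squares are the 3 miRNAs with NCC reads at 28 hpf, and dotted lines mark 2-fold. Black circles stand at positive ratios only, and the intervals of miRNAs with 1 or 2 NCC reads span several log2 units. For most of the 18, few NCC reads were expected at equal levels, so a call at a negative ratio was hardly possible.

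The remaining 13 miRNAs with NCC reads at 16 hpf had 1 to 5 of them. The 2 over 2-fold in non-NCC were miR-725-3p and miR-2184, each with 1 NCC read. miR-725-3p had 389 reads in non-NCC, where 6.53 NCC reads were expected at equal levels, and its log2 ratio was -2.71 (interval -8.01 to -0.22; exact binomial test, adjusted p = 0.0764). It was the one miRNA of the group for which the libraries leaned to non-NCC by the interval, and edgeR's TMM factors took it past the threshold (log2 ratio -2.93, exact binomial test, adjusted p = 0.0265). miR-2184 had 204 reads in non-NCC, with 3.42 NCC reads expected, and a log2 ratio of -1.78 (-7.09 to 0.72).

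For miR-722, the neutrophil miRNA, the NCC value was higher at both stages but rested on few reads. It had 4 NCC and 120 non-NCC reads at 16 hpf, or 30.9 and 15.5 normalized counts, and 1 and 3 reads at 28 hpf, or 11.4 and 0.263 normalized counts. The log2 ratio was 0.99 at 16 hpf (interval -0.91 to 2.38) and 5.44 at 28 hpf (-0.28 to 9.08), and neither passed the test (exact binomial test, adjusted p = 0.347 and 0.277, respectively). A difference between the libraries was thus not detectable at these depths.

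miR-724 had 5 NCC and 458 non-NCC reads at 16 hpf, with a log2 ratio of -0.62 (interval -2.25 to 0.61). miR-7148-5p had 3 and 236 reads (-0.40, from -2.69 to 1.16), and miR-737-5p 2 and 190 reads (-0.67, from -3.73 to 1.20). None of these intervals excluded an equal level. The same held for miR-2189 (1 and 68 reads), miR-2188-3p (2 and 57), miR-733 (2 and 39), miR-726 (1 and 28) and miR-7132-3p (1 and 6). The highest ratio of the group, 59.6-fold for miR-7145, rested on 1 read in each library, and its interval ran from -0.40 to 12.2 on the log2 scale.

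**Figure D3:**
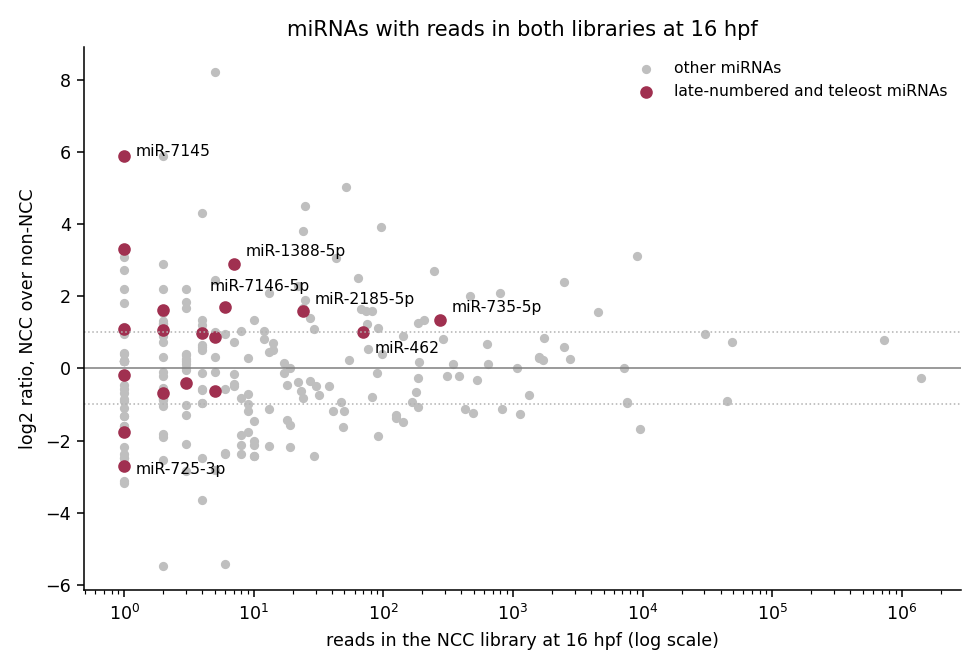
Log2 ratio of NCC over non-NCC normalized counts at 16 hpf against the reads in the NCC library (log axis), for the 225 miRNAs with reads in both libraries. Red points are the 18 late-numbered and teleost miRNAs, grey points the others, and dotted lines mark 2-fold. Most red points stand at the left, with few NCC reads, where grey points spread as widely.

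The other 20 late-numbered miRNAs detected at 16 hpf had reads in non-NCC only, from 2 to 149 of them. At equal levels, between 0.0336 and 2.50 NCC reads would have been expected for each, and for none as many as 3, so a lower level in NCC was not detectable. The highest expectation was that of miR-2188-5p, with 149 non-NCC reads, for which the upper end of the log2 interval stood at 0.58 (adjusted p = 0.415 by the exact binomial test). Of those at 28 hpf, the 12 seen in non-NCC only had 1 to 54 reads, and together 1.18 NCC reads would have been expected for them.

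At 28 hpf, miR-735-5p, miR-462 and miR-722 were the late-numbered miRNAs with reads in both libraries. Of these 3, miR-462 and miR-722 were over 2-fold in NCC, where 24.5% of all 49 such miRNAs were, and none was over 2-fold in non-NCC, where 34.7% were. With each of the other scalings, miR-735-5p was also over 2-fold in NCC, which made 3 of 3. The shares of all miRNAs with those scalings are not given here. At equal levels, 0.331 NCC reads were expected for miR-462 and 0.0231 for miR-722. Any NCC read thus put miR-462 and miR-722 over 2-fold, and these counts are given as descriptions only. The change of the NCC to non-NCC ratio between the stages could be tested for 12 late-numbered miRNAs with a two-sided exact conditional test on the 4 read counts, adjusted over 189 miRNAs. None passed, with or without adjustment, where 14.8% of all miRNAs passed after adjustment and 16.9% before it. The lowest adjusted p was 0.388 (exact conditional test), for miR-722. With at most 4 NCC reads at 28 hpf, these tests could show large changes only.

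Reads of the non-NCC libraries, the deeper ones, were also compared between stages as a share of all miRNA reads. The 15 late-numbered miRNAs found at 28 hpf were all among the 38 found at 16 hpf, and all 15 took a larger share at 28 hpf, by a median of 4.68-fold. Over all 236 miRNAs that could be followed, the median was 3.90-fold and 205 took a larger share, beside the fall of the miR-430 family from 91.7% to 66.7% of the reads. Without that family in the total, the medians were 1.16-fold and 1.02-fold, and 9 of the 15 took a larger share and 6 a smaller one. The 15, like the 236, were kept by having a read in the far shallower library of 28 hpf. With all reads in the total, 0.0784 reads were expected for miR-727-3p at its 16-hpf share and 0.447 for miR-2188-3p. For such miRNAs any read gave a larger share, so these counts and medians are given as descriptions only. By Fisher's exact test with adjustment over all miRNAs, 11 of 38 had a larger share at 28 hpf, against 45.3% of all miRNAs, and none a smaller one, against 2.94%. Together 48.2% of all miRNAs differed. Without the miR-430 family, 4 were higher at 28 hpf, against 21.0% of all, and 2 were lower, against 24.7%, which is 6 of 38 where 45.7% of all miRNAs differed. Of the 38, 23 had no read at 28 hpf. At their 16-hpf shares, at most 1.49 reads were expected for each of the 23, or 6.02 without the miR-430 family. A smaller share was thus hardly detectable for them, and the low rates of the group are given as descriptions only. These are 2 libraries with nothing to measure the spread between batches of embryos.

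Of the 4 that were higher by both totals, miR-2188-3p and miR-724 had the largest folds. miR-2188-3p went from 57 reads, 0.407 RPM (interval 0.308 to 0.527), at 16 hpf to 37 reads, 33.7 RPM (23.7 to 46.4), at 28 hpf. This was an 82.7-fold larger share, rank 7 of the 236 followed miRNAs. Without the miR-430 family it was 20.5-fold larger (Fisher's exact test, adjusted p = 2.85e-30), rank 7 of 231. miR-724 went from 458 reads, 3.27 RPM (2.98 to 3.58), to 54 reads, 49.1 RPM (36.9 to 64.1), a 15.0-fold larger share and 3.72-fold without the miR-430 family (Fisher's exact test, adjusted p = 4.15e-14). The 2 others were miR-2188-5p, by 11.1-fold and 2.76-fold, and miR-735-5p, by 6.19-fold and 1.53-fold, from 45.3 to 280 RPM. miR-727-3p, with 10 reads at 16 hpf and 2 at 28 hpf, had a 25.5-fold larger share of all reads (Fisher's exact test, adjusted p = 0.00915). Without the miR-430 family its 6.32-fold larger share did not pass (Fisher's exact test, adjusted p = 0.103).

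For miR-462 the direction turned with the total used. Its share was 14.8 RPM at 16 hpf (interval 14.2 to 15.5) and 39.1 RPM at 28 hpf (28.3 to 52.7), a 2.64-fold rise. Without the miR-430 family it fell to 0.654 of its 16-hpf share, where 65.7 reads would have been expected at 28 hpf and 43 were counted (Fisher's exact test, adjusted p = 0.0112). For miR-731, with 162 and 3 reads, the share at 28 hpf was 2.36-fold and 0.585 of that at 16 hpf by these totals, and neither passed the test. The other miRNA that was lower without the miR-430 family, miR-737-5p, had 190 reads at 16 hpf and none at 28 hpf, where 6.02 would have been expected (Fisher's exact test, adjusted p = 0.0124). With all reads in the total, 1.49 would have been expected and its loss was not detectable.

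**Figure D4:**
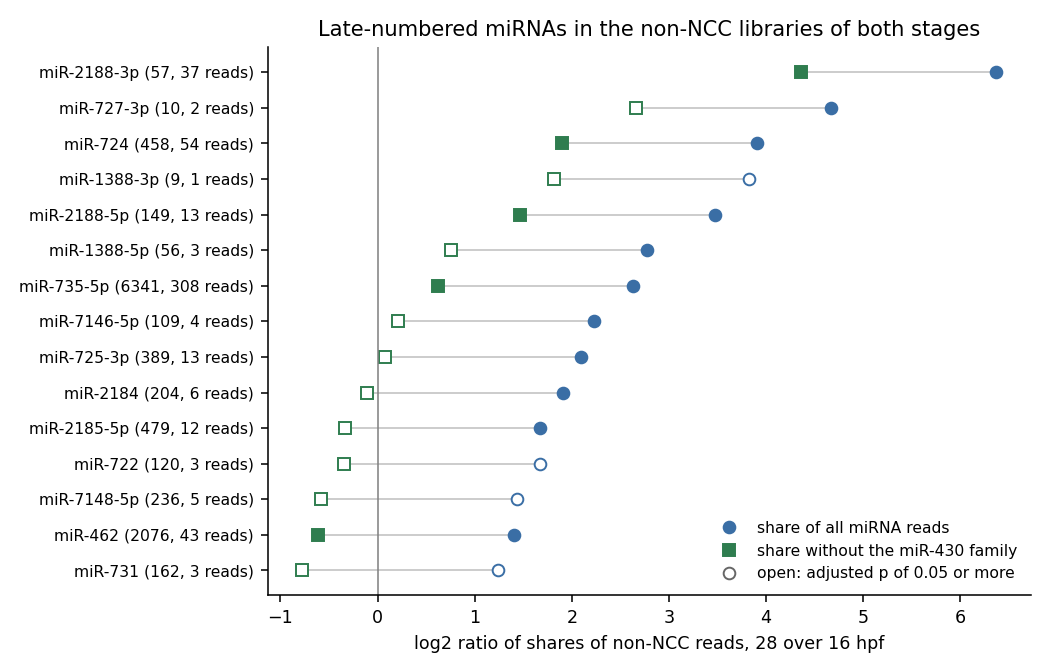
Change of the share of non-NCC reads from 16 to 28 hpf, on the log2 scale, for the 15 late-numbered miRNAs found in both libraries, with the reads of each at 16 and 28 hpf beside its name. Blue circles are shares of all miRNA reads and green squares shares without the miR-430 family, filled where Fisher's exact test gave an adjusted p under 0.05. All circles lie above 0, and 6 of the squares lie below it. Only miRNAs with a read at 28 hpf are shown, which favours a larger share.

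The gain of miR-2188 was unequal between its arms. In non-NCC at 16 hpf the 5p arm had 149 reads and the 3p arm 57, so that the 5p arm held 72.3% of both (95% Clopper-Pearson interval 65.7% to 78.3%). At 28 hpf the arms had 13 and 37 reads, and the 5p arm held 26.0% (14.6% to 40.3%). The intervals do not overlap and lie on opposite sides of 50%. In NCC, 2 reads of the 3p arm at 16 hpf were all that was counted. As a background chosen after these values were seen, 72 hairpins of the tables had both arms listed and at least 10 reads in non-NCC at each stage. In 6 of them the major arm was another one at 28 hpf, and in 3 of these, miR-2188, miR-200a and miR-16c, the intervals lay on opposite sides of 50%. The median shift over the 72 was 2.50 percentage points, that of miR-2188 was a fall of 46.3, and 2 of the 72 moved more.

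Most other hairpins of the group had reads mainly from one arm. In non-NCC at 16 hpf, the 5p arm held 95.6% of the reads of miR-2185 (93.4% to 97.2%), 90.1% of those of miR-7146 (83.3% to 94.8%) and 86.2% of those of miR-1388 (75.3% to 93.5%). miR-737 and miR-7148 had 190 and 236 reads of the 5p arm and none of the 3p arm. miR-725 was the reverse case, with 389 reads of the 3p arm and 3 of the 5p arm. miR-727 had 7 reads of the 5p arm and 10 of the 3p arm, and the interval of its 5p share, 18.4% to 67.1%, included 50%. At 28 hpf, miR-2185, miR-7146, miR-7148 and miR-1388 again had most reads on the 5p arm and miR-725 on the 3p arm, with 4 to 13 reads each.

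**Figure D5:**
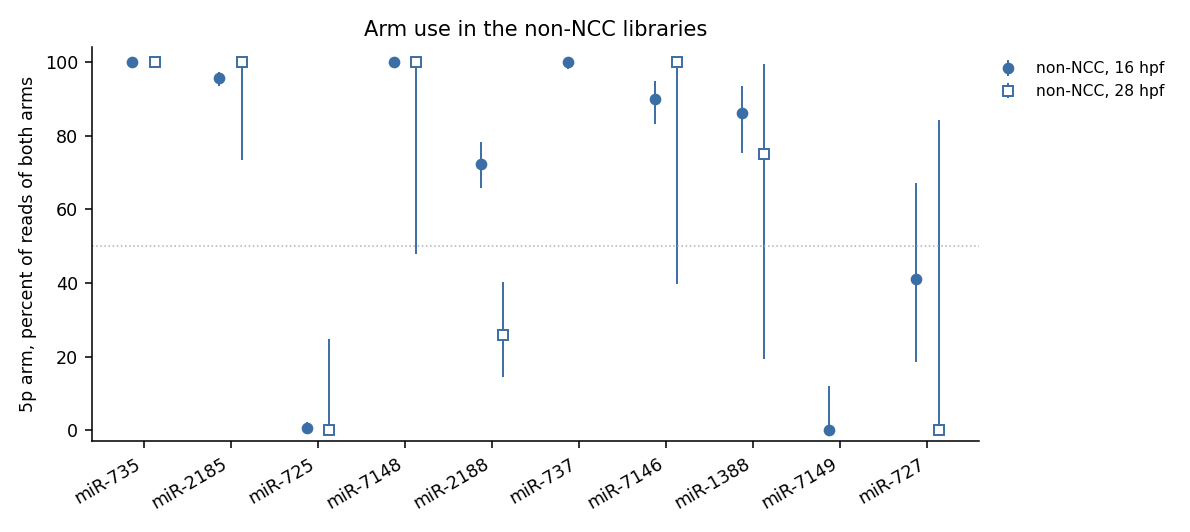
Share of the 5p arm among the reads of both arms, in percent, for hairpins of late-numbered miRNAs with at least 10 reads in non-NCC at 16 hpf, ordered by reads. Filled circles are 16 hpf and open squares 28 hpf, bars are 95% Clopper-Pearson intervals, and the dotted line marks 50%. miR-2188 moves from 72.3% to 26.0%.

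The sorts were also read for miRNAs known from other cell types, which do not measure the cell content of a sort. The list holds 10 miRNAs of red blood cells, muscle, neural tissue and epithelia. At 16 hpf, 8 of them had reads in NCC and all 10 in non-NCC, with 12607 and 16932 normalized counts in sum. At 28 hpf, 3 had reads in NCC (1038 normalized counts in sum) and 9 in non-NCC (597). Most of that NCC sum was miR-205-5p of epithelia (775 in NCC and 123 in non-NCC). miR-9-5p of neural tissue (239 and 390) and miR-133a-3p of muscle (22.8 and 66.5) were lower in NCC. The 2 over 2-fold in NCC at 16 hpf were miR-451, a red blood cell miRNA (332 and 39.4 normalized counts), and miR-133a-3p (494 and 87.3). In the paper, RT-qPCR of cells sorted at 16 hpf also found miR-133a-3p higher in NCC. The paper checked its sorts by the crest marker foxd3 and by tbx5a, which it took as a non-NCC marker. Over 2-fold in non-NCC were 5, among them miR-144-5p, also of red blood cells (15.4 and 684), and miR-206-3p of muscle (139 and 377). The others were miR-124-3p and miR-9-5p of neural tissue (5.20-fold and 2.16-fold) and miR-203a-3p of epithelia (5.87-fold). miR-205-5p stood at 8268 and 8281, and miR-144-3p and miR-1 had no NCC read. miR-204-5p, taken here as a crest marker, was 5.29-fold higher in NCC at 16 hpf (19192 and 3627 normalized counts). At 28 hpf it stood at 205 in NCC, from 18 reads, and 167 in non-NCC. The part of other cell types in the ratios of late-numbered miRNAs was not tested.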

How the data were processed

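Small RNA was sequenced from NCC and non-NCC sorted at 16 and 28 hpf, with 1 library for each. The authors aligned reads with Bowtie, counted them with HTSeq and normalized the counts, and used DESeq2 for differential expression. The deposited unit is a non-negative signal, the normalized count. Tool versions and the handling of reads that match several genes are not given in the sources used here. In each library 100% of values were whole multiples of the smallest one (tolerance 1e-05 reads), and division gave back whole reads. The miRNAs and lists described were chosen with earlier results of these data known. Named are those with an NCC read, the 5 with most reads in each library, and their other arms; others are marked. Rows of the miR-430 family number 16. The limit of a library was taken as 3 reads, which for the NCC libraries is 23.2 normalized counts at 16 hpf and 34.2 at 28 hpf. Tests were checked on simulated data. Alternatives were other thresholds, scalings, pseudocounts, minimum reads, and reads divided by precursor genes. Used were Python 3.11.15, numpy 2.4.6, pandas 2.3.3, scipy 1.17.1, matplotlib 3.10.9, R 4.3.3 and edgeR 4.0.16.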

Additional observations from a re-analysis of the deposited data

How the results depend on the processing

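With 1 library per group, no library could be left out and no result has a replicate check. No paired analysis was possible because each population and stage has 1 library. Counts of late-numbered miRNAs over 2-fold moved most with the treatment of zeros. For 16 hpf in NCC, the 10 became 3 at a 4-fold threshold, 3 with at least 10 reads in both libraries and 26 with 0.5 reads added, and for 16 hpf in non-NCC, the 2 became 1 at 4-fold, 0 with at least 10 reads and 22 once the paper's pseudocount for plotting was added. For 28 hpf in NCC, the 2 became 0 with at least 10 reads and 12 with 0.5 reads added, and in non-NCC the 0 became 12 with that pseudocount. The shares of all miRNAs at the other thresholds and with added reads or pseudocount are not given here. These counts show the dependence on the setting and are descriptions only. Detection fell to 9 and 3 in NCC at 16 hpf with at least 3 and 10 reads, to 1 and 0 in NCC at 28 hpf, and to 7 in non-NCC at 28 hpf with at least 10 reads. The number with a changed share of non-NCC reads fell from 11 to 6 without the miR-430 family. Relative to the deposited scaling, edgeR's TMM factors shifted all log2 ratios by -0.23 at 16 hpf and by 0.41 at 28 hpf, and totals without the miR-430 family by 0.05 and 0.67. Of 84 tested alternative values of 21 named ratios, 82 kept direction and side of the threshold, and the exceptions were miR-7146-5p and miR-725-3p with edgeR's TMM factors. With 0.5 reads added, which was not tested, 1 of the 21 changed sign, miR-2189 at 16 hpf, from -0.19 to 0.38.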

Other observations

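These groups of precursors were formed after the gene table and the values had been seen. Of the late-numbered miRNAs, 4 precursors lie in or beside opsin genes, which encode light-sensing proteins: mir726 between opn1sw2 and opn1lw1, mir729 beside opn1sw1, and mir727 and mir728 within tmtopsb. Their reads were few at both stages. miR-726 had 1 NCC read and 28 non-NCC reads at 16 hpf, and none later. miR-729 had 2 reads, in non-NCC at 16 hpf. miR-727-5p had 7 reads and miR-727-3p 10 in that library, and miR-727-3p had 2 in non-NCC at 28 hpf. miR-728 was at 0 throughout.

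A second set lies at genes of muscle. mir736 lies in myh7, a myosin heavy chain gene, mir2192 in pvalb3, a parvalbumin gene, mir732 beside spegb, a muscle kinase gene, and mir3906 in myf5, a regulator of muscle fate. miR-736 had 25 reads in non-NCC at 16 hpf, miR-732 had 19 and miR-2192 had 2, with none in the other libraries, and miR-3906 was at 0 in all 4. The precursor of miR-735 also lies within the span of mybpc2b, a gene of a muscle myosin-binding protein. It lies as well within that of si:ch211-234p6.5, another protein-coding gene. The 5p arm of miR-735 had 272 reads in NCC at 16 hpf. miR-1306, whose hairpin lies in dgcr8, the gene of the partner of Drosha, had 8 reads, all in non-NCC at 16 hpf. miR-7149, in ttll10 next to dre-mir-429, had 29 reads of its 3p arm there.

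The other late-numbered miRNAs with reads had them in non-NCC at 16 hpf only: miR-734 (16), miR-7147 (14), miR-738 (14), miR-730 (12), miR-7146-3p (12), miR-7133-3p (8), miR-723-3p (2) and miR-7132-5p (2). The 21 without a read include 6 that are the opposite arm of a detected hairpin. Of the 14 listed miRNAs from miR-2186 to miR-2198, 10 were at 0 in all 4 libraries, and those with reads were both arms of miR-2188, miR-2189 and miR-2192.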
